A study of Mus musculus with 117 samples.

Results

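The second postnatal week of spinal cord astrocyte maturation was examined by comparing ribosome-associated RNA of uninjured mGfap-RiboTag mice at P14 (5 libraries) with that at P7 (3 libraries), which are 8 of the 117 libraries of the series. Members were chosen by the age, line and RNA fraction given in the sample labels. RiboTag mice carry an HA-tagged ribosomal protein that is switched on by Cre, so that the ribosomes of the Cre-expressing cells can be pulled down with the mRNA they carry. Here Cre was driven by the mouse Gfap promoter (line mGfap-Cre-73.12) in all groups used. The labels give no treatment or injury for any of these groups. The P7 group held 2 males and 1 female, and the P14 group held 2 males and 3 females. The other uninjured mGfap-RiboTag libraries, at P0 (4), P3 (3), P21 (4), P35 (4) and P63 (5), entered the same statistical fit and serve as the frame in which the week is placed. Of these, the P0 libraries were all from males, and the other ages held both sexes. Tails were genotyped for each sample, per the study's methods. Litters and preparation batches are not given in the sources used here, and p-values measure the spread between these samples only.

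In the rodent cord, the second week is a time when astrocytes leave the cell cycle, extend fine processes and take on the uptake of transmitter and potassium, when oligodendrocytes wrap axons with myelin, and when thyroid hormone levels rise. A bulk pulldown reports an average over all tagged cells, and fewer cells of a type and less RNA per cell cannot be told apart in it.

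Libraries held 78855616 to 92913020 counts on genes at P7 and 67253656 to 85779903 at P14. Astrocyte markers were abundant at both ages, and Gfap, the astrocyte intermediate filament, read 16136, 14703 and 15542 CPM (counts scaled to a common library size) at P7 and 21401, 20229, 16745, 23692 and 23912 CPM at P14. At P63, where the RNA left behind by the pulldown (flow-through) was sequenced as well, the 14 astrocyte markers stood 4.53 ± 0.19 log2 units higher in the pulldown (list median, mean ± SD over 5 pairs of libraries with the same replicate number). The 8 Schwann cell markers summed to 17260 to 18746 CPM at P7 and 8929 to 13308 CPM at P14, and 0 of 8 passed the test by edgeR, 0 also at an unadjusted p under 0.05. At P63 these markers stood 1.85 ± 0.24 log2 units above the flow-through, with 8 of 8 above 0. One identifier without a name in the annotation took 7.86% to 10.2% of counts at P7, 7.91% in P14 replicate 2 and 12.9% to 16% in the other P14 libraries.

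The 5 P14 libraries stood apart from the others in one respect that bears on every result. In each of them, short transcripts were read more and long transcripts less than in the other libraries. The slope of a gene's log2 deviation from its mean over libraries, per doubling of transcript length, was −0.265 to −0.208 at P14, against −0.0115 to 0.0985 at P7 and −0.0606 to 0.111 at P21. The P63 libraries came nearest, at −0.192 to −0.0479. The slopes at P7 and P14 did not overlap. The median log2 fold change from P7 to P14 fell from 0.72 in genes of up to 500 bases to −0.29 in genes of 6000 to 8000 bases. All P14 libraries share this relation, so that it and age cannot be told apart. Where named, results are also given from a fit with a length offset, which removes each library's smooth relation of CPM to transcript length and was added after the relation had been seen.

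**Figure D1:**
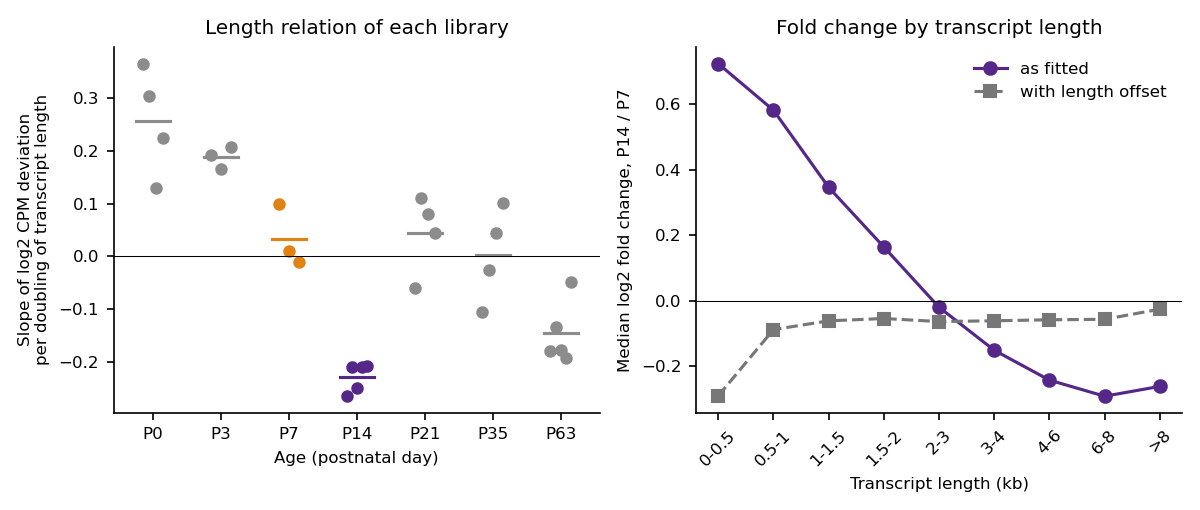
Left, slope of log2 CPM deviation per doubling of transcript length for each of the 28 mGfap-RiboTag libraries by age, with bars at group means. Right, median log2 fold change from P7 to P14 of genes in classes of transcript length (kilobases), as fitted and with the length offset. The P14 libraries (purple) all lie below −0.2, and the offset flattens the curve except in the shortest class.

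Of 18041 genes tested by edgeR's quasi-likelihood F test, 1885 (10.4%) were higher and 1503 (8.33%) lower at P14 than at P7 at an FDR under 0.01, 18.8% in all. Of these, 559 (3.1%) rose and 473 (2.62%) fell by at least 2-fold, 5.72% in all. The median log2 fold change of all genes was −0.02. Genes that rose had a median transcript length of 1783 bases and genes that fell 4310 bases, against 2824 for all genes tested. With the length offset, 1357 genes (7.52%) were higher and 1351 (7.49%) lower, 15% in all, of which 412 (2.28%) and 372 (2.06%) by at least 2-fold (4.35% in all). Of the genes called as fitted, 1093 of the 1885 rises and 1045 of the 1503 falls kept their call and direction. The count fell without any 1 of the P7 libraries, and most without P7 replicate 1, where 1105 genes were higher and 764 lower. Without P7 replicates 2 and 3 it was 2484 and 2516 in all.

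The largest rises among well-expressed genes were those of Opalin, Tmem52, Smim3, Chad, Neu4, Klhdc7a, Eva1a, Mt2, Gadd45g and Mog, with log2 fold changes from 5.00 down to 3.18. The largest falls were those of Frem3, Slit1, Scube2, Olfml2a, Lama1, Fbln2, Postn, Angptl4, Col14a1 and Ahr, from −4.73 to −2.52. In all 20 of them the P7 and P14 libraries did not overlap, which the rule for naming them required, and all kept their call with the length offset. The call of Col14a1, a collagen, was lost in 6 of the 8 fits without 1 library.

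**Figure D2:**
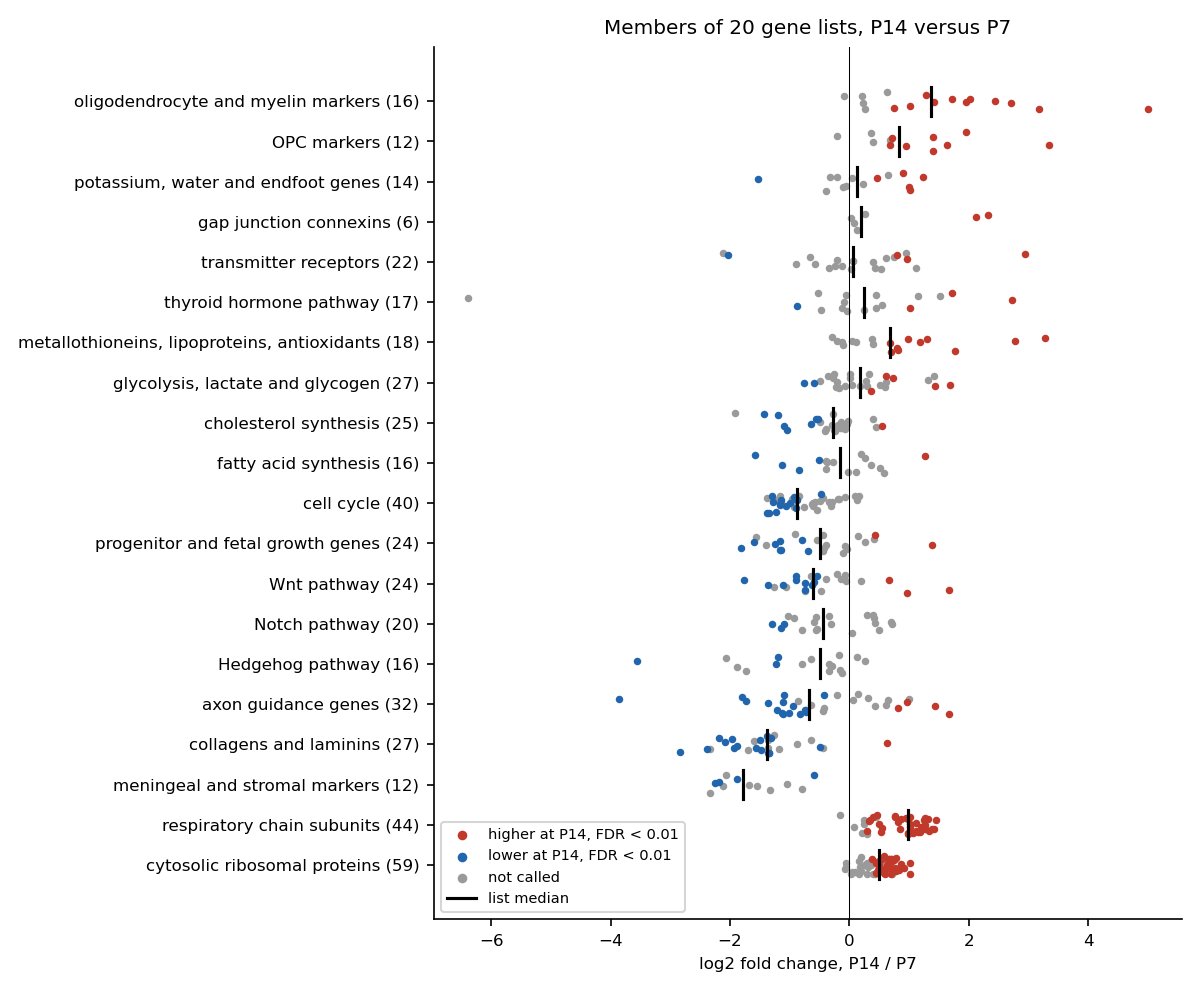
log2 fold change from P7 to P14 of each tested member of 20 gene lists, with the number of members in parentheses. Red and blue points were higher or lower at P14 at an FDR under 0.01, grey points were not called, and black bars mark list medians. Myelin and OPC markers lie to the right, collagens, laminins and cell cycle genes to the left. The grey point farthest left in the thyroid hormone row is Ttr, which was at 0 in every P14 library, so that its position depends on the prior count of the fit.

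Genes of the oligodendrocyte lineage were called higher in most members and lower in none, against 10.4% and 8.33% of all genes. Of 16 oligodendrocyte and myelin markers, 11 rose, 0 fell, and the median log2 fold change was 1.36. Of 12 markers of oligodendrocyte progenitors (OPCs) and newly forming oligodendrocytes, 8 rose, 0 fell, and the median was 0.83. The same counts were found with the length offset (medians 1.32 and 1.02). Without P7 replicate 1, 5 OPC markers were called.

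Opalin (chr19:41061959-41077113 in mm10), a membrane protein of myelinating oligodendrocytes, read 0.687, 1.44 and 1.26 CPM at P7. At P14 it read 33.8, 47.6, 47.9, 29.6 and 22.7 CPM. Every P14 library was thus many times above every P7 library, with a log2 fold change of 5.00 ± 0.32 (SE, adjusted p = 1.03e-10). Mog (chr17:37010740-37023398), a protein of the outer myelin surface, went from 16.8, 23.2 and 25.8 CPM to 210, 279, 240, 135 and 131 CPM (log2 fold change 3.18 ± 0.33, adjusted p = 1.23e-07). In both genes all 5 P14 libraries were above all 3 P7 libraries, which the rule for naming them required. P14 replicates 4 and 5, the 2 males of their group, were the lowest in both genes, and a part of sex in this was not tested. Mbp, myelin basic protein, was already at 4866 to 5694 CPM at P7 and about doubled, to 8705 to 13799 CPM (1.01 ± 0.23, adjusted p = 0.00133), a call lost without P7 replicate 1 (highest adjusted p = 0.0142). The factor Myrf, which drives myelin genes, rose from 35.4 to 44.7 CPM to 99 to 156 CPM (log2 fold change 1.72).

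Neu4 (chr1:94020493-94028334), a sialidase, showed the largest rise among OPC markers. It read 3.9, 5.31 and 4.06 CPM at P7 and 46.6, 61.5, 45.6, 37.3 and 34.3 CPM at P14 (log2 fold change 3.35 ± 0.57, adjusted p = 0.000103). Bcas1, Enpp6 and Gpr17, which mark cells on the way from progenitor to oligodendrocyte, rose by 1.96, 1.64 and 1.40 log2 units, and the call of Enpp6 was lost without P7 replicate 1. Pdgfra and Cspg4, which mark progenitors themselves, rose by 0.71 and 0.95. Olig1, Olig2, Sox10 and Sox6 were not called, with log2 fold changes of 0.36, 0.68, 0.40 and −0.20.

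The 2 lists differed in what the P63 pulldown retained. OPC markers stood 1.13 ± 0.14 log2 units above the flow-through, with 9 of 12 above 0, whereas oligodendrocyte and myelin markers stood at −1.09 ± 0.26, with 0 of 16 above 0. No flow-through libraries of P7 or P14 were analysed here, and the part of RNA from untagged oligodendrocytes in the rise was not tested.

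**Figure D3:**
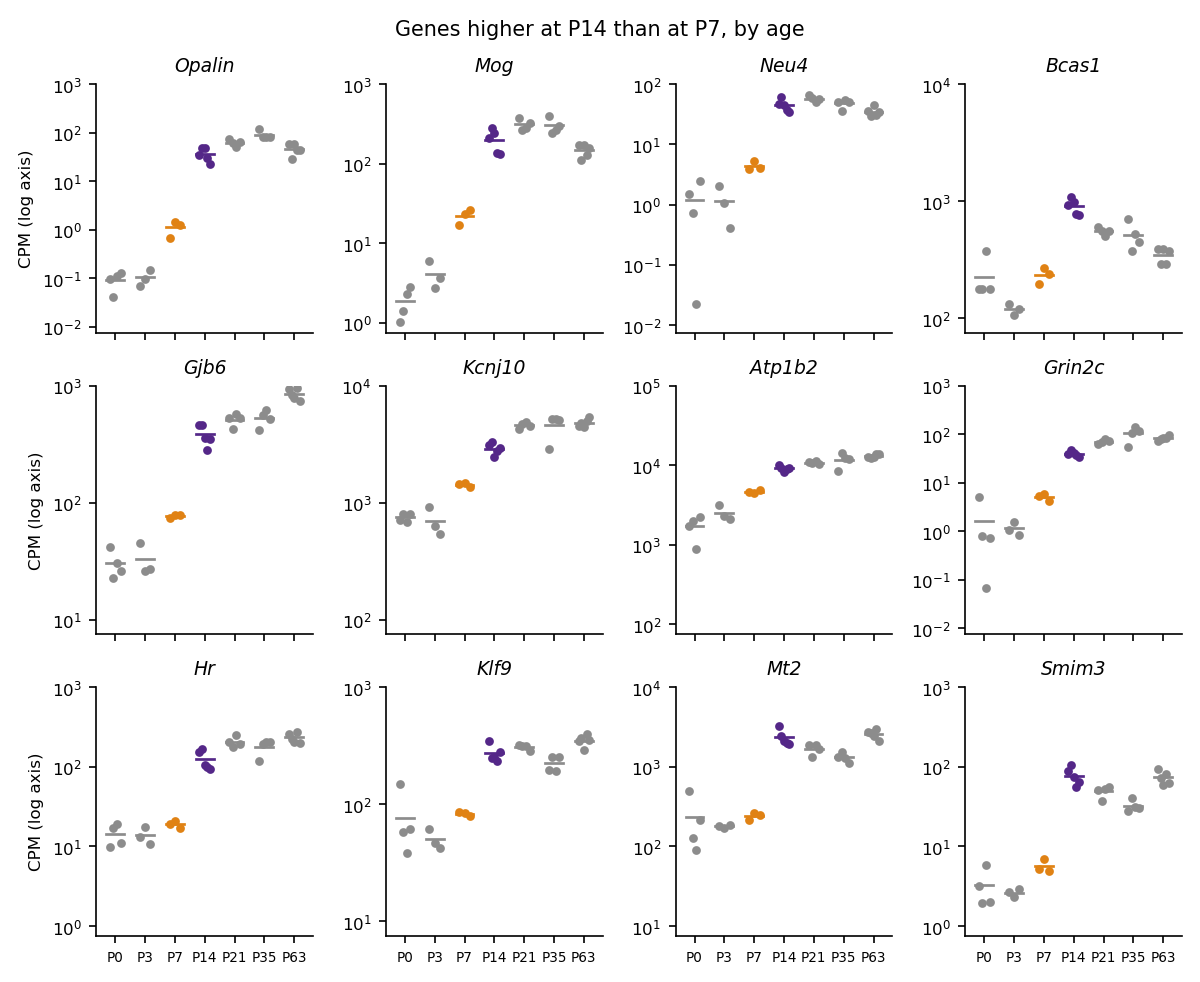
CPM (log axis) of 12 genes that were higher at P14 (purple) than at P7 (orange), in each of the 28 mGfap-RiboTag libraries by age, with bars at group means. In every panel all 5 P14 libraries lie above all 3 P7 libraries, as in 21.8% of all genes tested. For Opalin, Mog, Neu4, Mt2 and Smim3 the rule for naming them required this.

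Of the 14 astrocyte markers, 2 rose and 1 fell, a share close to the 18.8% of all genes, and the median was 0.07. Gjb6 (connexin 30), a gap junction protein of maturing astrocytes at chr14:57123301-57133611, read 73.4, 78.5 and 78.7 CPM at P7 and 465, 460, 360, 280 and 349 CPM at P14 (log2 fold change 2.32 ± 0.21, adjusted p = 1.14e-08). S100b, a calcium-binding protein, rose by 1.67 ± 0.24 from 470 to 623 CPM to 1475 to 2094 CPM. The other genes used to identify astrocytes changed less. Gfap (0.46 ± 0.21, adjusted p = 0.114), Aqp4, the endfoot water channel (−0.40 ± 0.24, adjusted p = 0.253) and Aldh1l1, a folate enzyme (−0.60 ± 0.19, adjusted p = 0.0172), were not called, although the P7 and P14 libraries did not overlap in any of the 3. For non-overlap the background is wide, since 21.8% of all genes tested lay wholly above at P14 and 22% wholly below.

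Of the transporters that clear glutamate, 1 was called. Slc1a3 (GLAST), the transporter of radial glia and young astrocytes, fell from 1159, 1073 and 1067 CPM to 612, 628, 425, 573 and 650 CPM (log2 fold change −0.93 ± 0.24, adjusted p = 0.00395). Slc1a2 (GLT-1), the main transporter of mature astrocytes, was at 5510, 4965 and 4932 CPM and then at 9493, 8996, 8664, 9239 and 8819 CPM. Its difference of 0.82 ± 0.25 missed the threshold (adjusted p = 0.0161) and passed it with the length offset (1.05, adjusted p = 0.000554). The call of Slc1a3 was lost when any 1 of the 3 P7 libraries, or P14 replicate 3, was left out. Of the 14 genes of glutamate, GABA and glycine uptake, 0 rose and 2 fell, Slc1a3 and the GABA transporter Slc6a11. The call of Slc6a11 was lost without any single library. The share called was below the 18.8% of all genes.

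Of 14 potassium, water and endfoot genes, 5 rose, among them Kcnj10, Atp1b2 and Slc12a2, and 1 fell. Among all genes, 10.4% rose and 8.33% fell. Kcnj10 (chr1:172341210-172374085), the inward rectifier Kir4.1, went from 1436, 1481 and 1369 CPM to 3094, 3270, 2460, 2741 and 2922 CPM (1.02 ± 0.17, adjusted p = 3.82e-05). Atp1b2, a beta subunit of the sodium pump, rose by 0.99. The one fall was that of Dag1, dystroglycan, which anchors the endfoot to the basal lamina: it read 608, 474 and 488 CPM at P7 and 164, 196, 121, 202 and 224 CPM at P14 (−1.53 ± 0.21, adjusted p = 4.92e-06). All 6 calls of the list held with the length offset.

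Of 22 transmitter receptors and their effectors, 3 rose and 1 fell, again close to the 18.8% of all genes (6 and 1 with the offset, and 1 that rose without any 1 of the P7 libraries). Grin2c, an NMDA receptor subunit found in astrocytes, rose from 5.27, 5.96 and 4.15 CPM to 38.3, 46.8, 40.1, 37.5 and 34.5 CPM (log2 fold change 2.94 ± 0.61, adjusted p = 0.000827). Grm3, the main metabotropic glutamate receptor of adult astrocytes, fell from 54.1, 43.6 and 52.6 CPM to 10, 11.6, 13.9, 14 and 11.6 CPM (−2.04 ± 0.24, adjusted p = 7.55e-07). Its level was then 15.7 CPM at P21 and 29.7 CPM at P35 (means). Grm5, the receptor of young astrocytes, read 35.9 to 39.3 CPM at P7 and 16.7 to 22.8 CPM at P14, which did not pass (−0.90 ± 0.36, adjusted p = 0.0622). The rise of Ntsr2, a neurotensin receptor, was lost with the length offset and without any single library.

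Of 17 genes of the thyroid hormone pathway, 3 rose and 1 fell (5 and 1 with the offset). Of all genes, 18.8% were called (15% with the offset). Hr (chr14:70554056-70573548), a corepressor of the thyroid hormone receptor and itself a classic target, read 19.1, 20.7 and 16.9 CPM at P7 and 155, 166, 106, 99.8 and 94.2 CPM at P14 (log2 fold change 2.72 ± 0.25, adjusted p = 2.17e-08). Klf9 (chr19:23141226-23168129), a hormone-induced transcription factor, went from 86.3, 83.6 and 79.9 CPM to 344, 247, 253, 235 and 282 CPM (1.71 ± 0.27, adjusted p = 2.9e-05). Dio2, the enzyme that activates the hormone in glia, was at 43.4 to 50.4 CPM and then at 110 to 174 CPM, which missed the threshold (1.52 ± 0.46, adjusted p = 0.015) and passed it with the length offset (1.74, adjusted p = 0.0047). The receptors Thra and Thrb were not called (−0.04 and 0.54). The third gene that rose was Mbp, and the one that fell was Rxrg, a retinoid X receptor that also marks oligodendrocyte precursors.

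Metallothioneins, small metal-binding proteins, rose together, and 10 of the 18 genes of their list rose with 0 falling (median 0.68, and 8 against 1 with the length offset). Among all genes, 10.4% rose and 8.33% fell (7.52% and 7.49% with the offset). Mt2 (chr8:94172618-94173567) read 215, 259 and 249 CPM at P7 and 3214, 2438, 2079, 2015 and 1917 CPM at P14 (log2 fold change 3.28 ± 0.37, adjusted p = 3.53e-07). Mt1 rose by 2.77 and Mt3 by 1.76. These transcripts are short, at 556, 751.5 and 538 bases. With the length offset their log2 fold changes were 2.46, 2.10 and 0.92 and all passed, while the list median was 0.25. The other members that rose were enzymes against peroxides and superoxide (Gpx1, Gpx4, Prdx6, Prdx1, Sod1 and Sod2) and Gstm5, of which Sod1 and Gstm5 lost their call with the offset.

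In energy metabolism, 5 of 27 genes of glycolysis, lactate and glycogen rose and 2 fell (4 and 1 with the offset). The share over all genes was 18.8% (15% with the offset). Pygm, which breaks down glycogen in astrocytes, rose from 144, 175 and 157 CPM to 472, 467, 396, 376 and 432 CPM (log2 fold change 1.43 ± 0.24, adjusted p = 5.59e-05). Pfkp, a phosphofructokinase, rose by 1.69 and the lactate transporter Slc16a1 by 0.73, while Gapdh fell by 0.76 on the log2 scale.

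Among transcription factors known in astrocytes, 5 of 25 rose and 1 fell, against 18.8% of all genes called. Tsc22d4 rose by 0.99 ± 0.12, from 420, 456 and 478 CPM to 979, 814, 960, 904 and 839 CPM. Nkx6-2, which also acts in oligodendrocytes, rose by 2.46 from 4.2 to 4.83 CPM to 16.8 to 32.1 CPM. Etv5, a factor downstream of FGF signalling, fell by 0.96 on the log2 scale. The rise of Id1 was lost with the length offset (0.14).

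Of 40 cell cycle genes, 15 fell and 0 rose, 37 had a log2 fold change below 0, and the median was −0.88. Over all genes, 8.33% fell and 10.4% rose. The length offset left 16 that fell and 0 that rose (median −0.72). Mcm5 and Mcm2 encode parts of the helicase that opens replication origins, and Bub1b a kinase of the spindle checkpoint. Mcm5 read 18.2, 17.4 and 15.1 CPM at P7 and 7.83, 7.68, 5.83, 3.69 and 7.49 CPM at P14 (log2 fold change −1.38 ± 0.25, adjusted p = 0.000137). Mcm2 read 16, 15.1 and 13.3 CPM and then 5.89, 7.62, 5.01, 5.91 and 5.58 CPM (−1.30 ± 0.27, adjusted p = 0.000501). Bub1b went from 9.15, 9.34 and 10.3 CPM to 4.21, 3.81, 3.4, 3.79 and 4.55 CPM (−1.28 ± 0.28, adjusted p = 0.000936). No P14 library reached a P7 library in any of the 3, as in 22% of all genes tested. Mki67, the proliferation marker Ki-67, about halved, from 33.6 to 40 CPM to 18.4 to 22.7 CPM (−0.89 ± 0.23, adjusted p = 0.00436), and lost its call with the length offset (−0.66, adjusted p = 0.0627). Its transcript has 9458 bases. The call was also lost without P7 replicate 1 or 3 and without P14 replicate 2 or 5.

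Since these genes moved together, their promoters are shown. Many cell cycle promoters carry the CCAAT box bound by NF-Y and the CHR element TTTGAA. The 150 bases before the RefSeq start of Mcm5, Mcm2 and Bub1b, whose values are given above, are printed 5′ to 3′ on the gene's strand (GRCm38.p6, the build of mm10), with CCAAT and TTTGAA, read on either strand, in capitals.
Mcm5, chr8:75109359-75109508, plus strand: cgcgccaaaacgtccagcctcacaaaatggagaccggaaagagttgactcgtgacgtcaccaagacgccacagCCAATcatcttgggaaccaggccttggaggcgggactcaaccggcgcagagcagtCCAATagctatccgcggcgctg
Mcm2, chr6:88898781-88898930, minus strand: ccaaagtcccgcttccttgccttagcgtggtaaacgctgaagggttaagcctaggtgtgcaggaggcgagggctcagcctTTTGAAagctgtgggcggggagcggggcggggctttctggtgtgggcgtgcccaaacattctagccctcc
Bub1b, chr2:118598061-118598210, plus strand: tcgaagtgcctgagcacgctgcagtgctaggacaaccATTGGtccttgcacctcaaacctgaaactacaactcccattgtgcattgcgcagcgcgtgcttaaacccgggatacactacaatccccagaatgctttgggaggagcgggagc

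In windows of 250 bases before to 50 after the start, CCAAT was present in 26 of 32 windows of cell cycle members (81.2%) and in 37.4% of all 32851 windows, and TTTGAA in 15 of 32 (46.9%) against 17.9%. Members that fell held CCAAT in 9 of 10 windows and members not called in 17 of 22. A match is a description of the sequence only, and 31 of the 40 members had a window.

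Of 24 progenitor and fetal growth genes tested, 8 fell and 2 rose, and with the offset 10 fell and 1 rose. Without P7 replicate 1, 5 fell and 0 rose. Igf2bp3, a fetal RNA-binding protein, went from 4.72, 4.66 and 4.46 CPM to 1.44, 1.24, 1.76, 1.09 and 0.989 CPM (log2 fold change −1.82 ± 0.26, adjusted p = 5.68e-06). Its relative Igf2bp2 fell by 1.60 on the log2 scale. Sox3 went the other way, from 11.6 to 14.5 CPM to 26.4 to 44.5 CPM (1.39 ± 0.32, adjusted p = 0.00147), which was lost without P7 replicate 1. Of 20 genes of the imprinted growth network, 4 fell and 0 rose (3 and 0 with the offset, and 2 that fell without P7 replicate 1). This share was close to the 18.8% of all genes called, of which 8.33% were lower. Grb10, a brake on growth factor receptors, fell by 1.48 on the log2 scale and Peg3 by 1.19, and H19 read 72.2 to 101 CPM and then 15.9 to 32 CPM, with a call that was lost without any single library.

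The extracellular matrix showed the lowest median of the functional lists. Of 27 collagens, laminins and other basement membrane genes, 16 fell and 1 rose, and the median log2 fold change was −1.38. The shares over all genes were 8.33% lower and 10.4% higher. After the length offset 12 fell and 1 rose (median −1.16). Without P7 replicate 1, 10 fell. Lama1 (chr17:67697127-67822645), a laminin chain of the pial basement membrane, read 17, 12.1 and 17.4 CPM at P7 and 1.43, 1.62, 2.12, 3.28 and 2.46 CPM at P14 (−2.83 ± 0.37, adjusted p = 2.73e-06). Fbln2, a fibulin of the matrix, went from 70.3, 58.9 and 55.4 CPM to 8.04, 6.89, 9.6, 9.69 and 11 CPM (−2.77 ± 0.36, adjusted p = 4.53e-06). Col9a3 was the member that rose, by 0.63. Frem3 (chr8:80611039-80695557), a matrix protein with the largest fall among the genes named, went from 8.82, 6.19 and 6.36 CPM to 0.333, 0.297, 0.212, 0.239 and 0.243 CPM (−4.73 ± 0.57, adjusted p = 9.63e-07).

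Markers of meningeal and stromal cells moved with this list. All 12 had log2 fold changes below 0 (median −1.79) and 4 fell: Foxc1, Col1a1, Col1a2 and Pdgfrb, of which both collagens belong to both lists (2 fell without P7 replicate 1). Among all genes, 8.33% fell. The summed level of the 12 was 2033 to 2407 CPM at P7 and 459 to 716 CPM at P14, and no marker was at 0 in either group. Col1a1 read 550, 511 and 491 CPM and then 93, 93, 102, 136 and 148 CPM (−2.18 ± 0.50, adjusted p = 0.00203), which was lost without P7 replicate 1. At P63 Lama1, Frem3 and Col1a1 stood below the flow-through (−3.47, −5.25 and −2.03 log2 units), while Col1a2 stood above it (1.19). The part of stromal RNA in the fall of matrix genes was not tested.

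**Figure D4:**
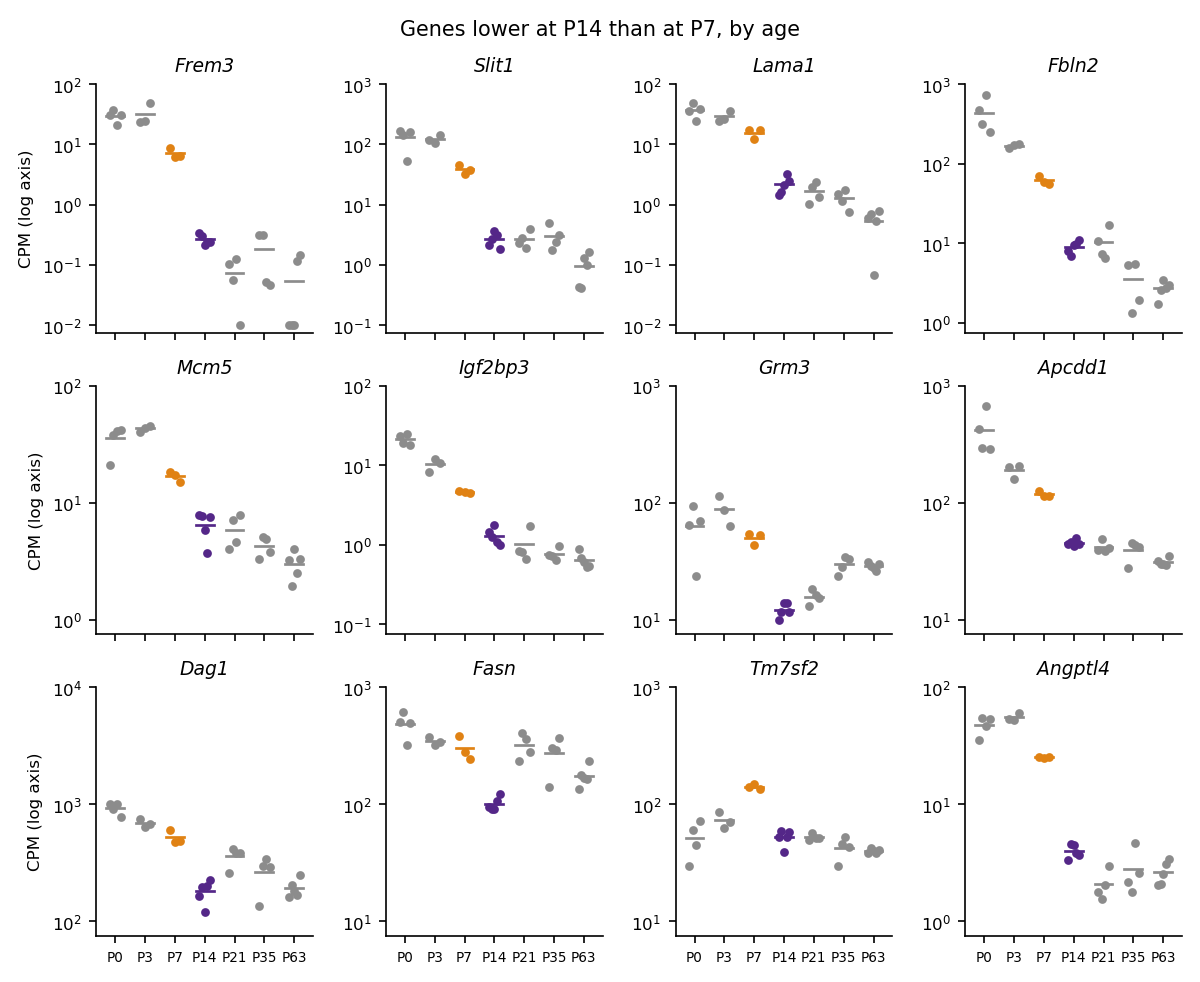
CPM (log axis, values below 0.01 drawn at 0.01) of 12 genes that were lower at P14 (purple) than at P7 (orange), in each of the 28 mGfap-RiboTag libraries by age, with bars at group means. Slit1, Lama1 and Fbln2 stay low after P14, whereas Dag1 and Fasn are higher again at P21.

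Of 32 axon guidance genes, 15 fell and 4 rose (median −0.68, and 11 against 7 with the length offset, and 2 that rose without P7 replicate 1 or 3). Over all genes, 8.33% fell and 10.4% rose (7.49% and 7.52% with the offset). Slit1 (chr19:41597824-41747275), a secreted repellent of growing axons, read 46.1, 32.4 and 37.7 CPM at P7 and 2.18, 2.65, 3.61, 3.11 and 1.87 CPM at P14 (log2 fold change −3.86 ± 0.38, adjusted p = 9.69e-08). Its receptors Robo1 and Robo2 fell by 1.37 and 1.22 on the log2 scale, and Efnb1, an ephrin, by 1.73. Unc5b, a netrin receptor, rose by 1.67, a call lost without P14 replicate 2 and without each P7 library.

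Of 24 Wnt pathway genes, 10 fell and 3 rose (9 and 3 with the length offset). Apcdd1, a membrane inhibitor of Wnt signalling, fell from 125, 114 and 114 CPM to 44.4, 46.2, 42.6, 49.7 and 44.6 CPM (−1.37 ± 0.18, adjusted p = 2.67e-06). The pathway's target Axin2 fell by 0.89 on the log2 scale, its receptor Fzd7 by 1.11 and its nuclear effector Tcf7 by 1.76. Sfrp1, a secreted Wnt antagonist, rose from 19.9, 16.9 and 13 CPM to 48.3, 28.8, 47.1, 78.3 and 60.1 CPM (1.66 ± 0.32, adjusted p = 0.00027). In the Notch pathway 3 of 20 genes fell and 0 rose, with the receptor Notch3 at −1.30 and the effectors Hes5 and Hey2 at −1.14 and −1.10. The call of Hes5 was lost in 6 of the 8 fits without 1 library, and with the offset 4 of the 20 fell and 1 rose. In the Hedgehog pathway 3 of 16 fell and 0 rose, with the target Gli1 at −1.23 and Scube2, which releases the ligand, at −3.55 (4.62 to 6.24 CPM and then 0.277 to 0.73 CPM). The third was Sufu, whose call was lost with the offset and in 4 of the 8 fits without 1 library. As fitted, the share called in both pathways was close to the 18.8% of all genes called in either direction. Of all genes, 8.33% were called lower.

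Of 18 synapse-organizing genes tested, 5 fell and 1 rose (4 and 1 with the offset, and 3 that fell without P14 replicate 1 or 3 or any 1 of the P7 libraries). The shares over all genes were 8.33% lower and 10.4% higher. Thbs1, a synaptogenic thrombospondin, went from 12.3, 10.5 and 8.51 CPM to 3.89, 3.04, 2.34, 2.18 and 3.47 CPM (log2 fold change −1.80 ± 0.26, adjusted p = 6.62e-06). Gpc4, a glypican that recruits AMPA receptors, fell by 1.06 on the log2 scale, and Thbs3 rose by 0.69, a call lost in 5 of the 8 fits without 1 library. Among 17 chondroitin sulfate proteoglycans, tenascins and link proteins, Ptprz1, Tnc and Vcan fell by 1.38, 1.17 and 1.08 on the log2 scale, while Hapln2 and Cspg4 rose by 1.29 and 0.95. The call of Hapln2 was lost without P7 replicate 1.

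Of 25 cholesterol synthesis genes, 7 fell and 1 rose (median −0.28), against 8.33% and 10.4% of all genes. By the fit with the offset, 9 fell and 1 rose, against 7.49% and 7.52% of all genes. Tm7sf2, a sterol reductase, read 140, 148 and 134 CPM at P7 and 52.7, 59.1, 39.3, 52.6 and 57.9 CPM at P14 (log2 fold change −1.43 ± 0.18, adjusted p = 1.78e-06). Nsdhl, a demethylating dehydrogenase of the same pathway, read 130, 113 and 116 CPM and then 60.8, 60.8, 53.2, 56.5 and 59.2 CPM (−1.04 ± 0.16, adjusted p = 1.84e-05). Of 16 fatty acid synthesis genes, 4 fell (Fasn, Fads2, Acly and Srebf1) and Acsl3 rose, with Srebf1 not called with the offset. Fasn, fatty acid synthase, read 381, 280 and 246 CPM and then 95.2, 91.3, 90.4, 107 and 123 CPM (−1.58 ± 0.23, adjusted p = 1.06e-05).

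The same 150 bases are shown for Tm7sf2 and Nsdhl, because sterol genes are another class known for CCAAT boxes.
Tm7sf2, chr19:6067851-6068000, minus strand: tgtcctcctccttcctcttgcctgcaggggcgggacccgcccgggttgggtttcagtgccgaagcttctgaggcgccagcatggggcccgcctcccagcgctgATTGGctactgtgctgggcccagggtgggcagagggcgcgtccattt
Nsdhl, chrX:72918371-72918520, plus strand: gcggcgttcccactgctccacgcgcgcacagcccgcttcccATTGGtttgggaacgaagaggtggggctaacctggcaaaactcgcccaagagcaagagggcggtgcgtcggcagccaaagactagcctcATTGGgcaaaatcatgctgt
The capitals mark CCAAT on the opposite strand. CCAAT was in 16 of 20 windows of the list's members (80%), TCACCCC, the core letters of the sterol regulatory element, in 2 of 20 (10%, against 4.97% of all windows) and TTTGAA in 1 of 20. A window was found for 17 of the 25 members.

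The 2 lists of housekeeping machinery depended most on transcript length. Of 44 subunits of the respiratory chain, 37 rose and 0 fell, with a median log2 fold change of 0.98. Over all genes, 10.4% rose and 8.33% fell (7.52% and 7.49% with the offset). When length was offset, 25 rose and 0 fell, with a median of 0.33. Ndufb3, a complex I subunit with a transcript of 750 bases, read 58.9, 70.6 and 68.6 CPM at P7 and 149 to 243 CPM at P14 (1.45 ± 0.15, adjusted p = 1.01e-07), and its difference with the offset was 0.77. Of 59 cytosolic ribosomal proteins, 37 were called higher and 0 lower (median 0.50). Without P7 replicate 1 and without P7 replicate 2, the number called higher was 13 and 21. With the offset, 3 were higher and 15 lower (median −0.15). Rps21 illustrates this: it read 90.8 to 105 CPM and then 164 to 277 CPM (1.02 ± 0.17), and 0.02 with the offset. Ribosomal protein genes have many near-identical pseudogenes, and counts may be split between copies.

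Few markers of other cells were called, but most lay below 0. This held for 12 of 14 neuron markers (median −0.68), 10 of 14 of microglia and macrophages (−0.22) and 10 of 12 endothelial and mural ones (−0.69). Ependymal markers were split, with 7 above and 7 below 0 (0.04). Of all genes, 10.4% were called higher and 8.33% lower. By edgeR, 0 of 14 neuron markers were called, 4 of them at an unadjusted p under 0.05, and their summed level was 454 to 755 CPM at P7 and 368 to 780 CPM at P14. For microglia and macrophages, 1 of 14 fell (Csf1r, −1.30) at summed levels of 85.7 to 95.1 CPM and 61 to 81.1 CPM. Of 12 endothelial and mural markers 3 fell (Cdh5, Abcc9 and Pdgfrb, each a call lost in 6 or 7 of the 8 fits without 1 library, and 1 with the offset), with summed levels of 119 to 125 CPM and 103 to 138 CPM. Of 14 ependymal markers 1 rose, Rarres2 (0.64), and was lost with the offset. Erythrocyte and neutrophil markers summed to 3.65 to 11.5 CPM and 0.984 to 5.09 CPM over both ages, with 0 called of 5 and 0 of 7, and 0 and 1 at an unadjusted p under 0.05. Of 16 clock genes 2 were called higher (Nr1d2 and Tef, 0.40 and 0.36), both calls being lost in 5 of the 8 fits without 1 library. Of 17 immune and acute-phase genes 1 rose (H2-K1, 0.65) and 1 fell, against 0 and 3 with the offset, under which H2-K1 was not called. Of 9 cell cycle inhibitors 2 rose (Cdkn1a and Cdkn2d, 1.09 and 0.71) and 1 fell (Rb1, −0.75), with none of the 3 calls kept with the offset. Of 6 connexins 2 rose, Gjb6 among them.

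To see which changes were particular in size to the second week, the change from P7 to P14 was tested against those over the weeks before and after, each of 7 days. Both tests share libraries with the comparison itself. The P0 libraries were all from males, whereas P7, P14 and P21 held both sexes. Against the first week (P0 to P7), 97 genes (0.538%) changed more positively and 191 (1.06%) more negatively, 1.6% in all. A fit of only the groups of this contrast called 19 genes in place of 288, and a fit with sex as a covariate called 267. With the length offset 130 (0.721%) and 265 (1.47%) did, 2.19% in all. This count rested on few libraries: it was 45 to 68 in all without 1 or other of the P7 libraries, and 639 and 583 without P0 replicate 2 and without P0 replicate 4. Genes for this contrast were picked among those already named for their change from P7 to P14, not among all genes tested. Of these, Smim3, Hr, Mt2, Chad, a matrix protein of cartilage, and Sfrp1 had the smallest adjusted p for a more positive second week. Hr had mean levels of 14.1 CPM at P0, 18.9 at P7 and 124 at P14 (difference of the changes 2.30 ± 0.43, adjusted p = 0.00256), and Mt2 of 232, 241 and 2333 CPM (3.22 ± 0.63, adjusted p = 0.00383). Tm7sf2, Hapln2, Nsdhl, Ntsr2 and Gapdh had the more negative second week. Tm7sf2 rose from 51.8 to 141 CPM between P0 and P7 and was back at 52.3 CPM at P14 (−2.87 ± 0.32, adjusted p = 5.23e-06). With the length offset the calls of Mt2 (adjusted p = 0.0115) and Gapdh (adjusted p = 0.0119) were lost, and those of the other 8 kept.

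In the test against the third week, the P14 libraries enter both weeks. A trait of these libraries alone and a change particular to the second week cannot be told apart in it. Against the third week (P14 to P21), 2092 genes (11.6%) changed more positively and 1753 (9.72%) more negatively, 21.3% in all. With the length offset 1333 (7.39%) and 1351 (7.49%) did, 14.9% in all. Picked in the same way, the genes named for the more positive second week were Smim3, Opalin, Tsc22d4, Ndufb3 and Cox6c. Opalin had mean levels of 1.13 CPM at P7, 36.3 at P14 and 61.9 at P21 (4.23 ± 0.41, adjusted p = 3.11e-08), and Tsc22d4 of 451, 899 and 493 CPM (1.86 ± 0.18, adjusted p = 3.03e-08). Those named for the more negative second week were Acly, Fasn, Lss, Dag1 and Gli1, each lower at P14 than at P7 and P21. Fasn had mean levels of 302, 101 and 321 CPM (−3.24 ± 0.40, adjusted p = 8.82e-07) and Dag1 of 523, 181 and 360 CPM (−2.52 ± 0.36, adjusted p = 5.87e-06). All 10 kept their sign and call with the length offset, under which the difference was −2.76 for Fasn and −2.03 for Dag1. Cox6c, a subunit of complex IV, had mean levels of 503 CPM at P14 and 223 CPM at P21, and its difference shrank from 2.56 to 0.73.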

How the data were processed

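RNA was sequenced from HA pulldowns of spinal cord of uninjured mGfap-RiboTag mice, and from the flow-through at P63. Each deposited file gives 1 library as raw read counts by gene identifier, for which the submitters' processing notes name Trimmomatic, HISAT2, featureCounts and the build mm10. Of 27179 identifiers, RefSeq (GRCm38.p6) named 25275 and GENCODE 18. Libraries held 67253656 to 92913020 counts in the 2 groups compared.

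The 28 libraries of all ages were fitted together in R 4.3.3 with edgeR 4.0.16 (TMM, filterByExpr, glmQLFit with legacy=TRUE and robust=TRUE, quasi-likelihood F tests, Benjamini-Hochberg adjustment over all 18041 genes tested, FDR under 0.01). CPM are scaled by TMM, and standard errors follow from the F statistic. Transcript length is the median spliced length of a gene's RefSeq transcripts. The length offset is a lowess fit with a span of 0.3 per library. P63 ratios are log2 CPM (prior count 2) of pulldown minus flow-through per replicate number, without a test. DESeq2 1.42.0 and other settings were alternatives. The fit recovered known changes in counts simulated with its own dispersions. These counts held no difference in the length relation between P7 and P14, so they cannot show how the fit behaves under it.

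Members and gene lists were chosen with earlier results of these data known. Named genes are, per list, up to 4 called members with the largest change in the main direction and 1 in the other. Each had a mean CPM of at least 1 at P7 or P14. They include the 10 largest rises and falls among protein-coding genes with non-overlapping groups. These had a mean CPM of at least 5 in the higher group and over 3 counts in each library of the other group. For each contrast between weeks, the 5 genes of each sign with the smallest adjusted p were taken from these list members and largest changes. They were thus chosen on the change from P7 to P14, which enters both contrasts. The 7 check genes were named whatever they did. Other list members were named after their values were seen. No 2 libraries of a group agreed within sampling noise. Some named genes are not reported here.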

Additional observations from a re-analysis of the deposited data

Results flagged for a closer look

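In 9 of 130 values examined in the 5 P14 libraries (127 named genes and 3 properties of the libraries), 1 library lay far from the other 4, with a gap to its neighbour of over 0.71 of the group's range. Chance alone gives this in about 1 in 20 groups. P14 replicate 2 was the one apart in 3 of them: it was highest for Lss (43.5 CPM, others 33.4 to 35.5) and Kif20a (3.61 CPM, others 2.15 to 2.37), and lowest for C1ql1 (284 CPM, others 350 to 371). Replicate 3 was lowest for Slc6a11 (2197 CPM, others 2768 to 2900) and Rb1 (39.6 CPM, others 54.2 to 57.5) and highest for Cox5a (430 CPM, others 301 to 338). Replicate 1 was highest for Mt1 (4026 CPM, others 2437 to 2844) and lowest for Postn (5.2 CPM, others 7.78 to 8.48). Replicate 4 was highest for Cdh5 (1.86 CPM, others 0.263 to 0.669).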

How the results depend on the processing

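Against 3388 genes called as fitted, DESeq2 size factors, DESeq2, both other filters on low counts, the newer edgeR fit and sex as a covariate gave 3066 to 4045, fitting only P7 and P14 gave 5592, and an FDR under 0.05 gave 5123. Without 1 library the count was 1869 (without P7 replicate 1) to 3166. For the second week against the first, 288 genes became 646 with DESeq2, 19 with only the groups of the contrast, 917 at an FDR under 0.05 and 45 to 639 without 1 library. Against the third week, 3845 became 6174 with only the groups of the contrast. Of 128 named genes called, 94 kept their call in all 8 fits without 1 library and in 8 other planned settings, and 108 kept it with the length offset.

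The length offset turned the sign of Rplp2 (−0.02) and of 6 list medians: glycolysis (−0.04), fatty acid synthesis (0.05), cell cycle inhibitors (−0.01), ribosomal proteins (−0.15), chondroitin sulfate proteoglycans (−0.06 to 0.14) and, within 1 SD, ependymal markers (0.04 to −0.18). It moved other medians beyond 1 SD without turning them: astrocyte markers to 0.19, uptake 0.13, receptors 0.25, synapse-organizing genes −0.40, cholesterol synthesis −0.36, cell cycle −0.72, progenitor genes −0.66, Notch −0.23, Hedgehog −0.30, Wnt −0.47, OPC markers 1.02, collagens and laminins −1.16, axon guidance −0.46, respiratory chain 0.33, clock genes 0.29, immune genes −0.36, metallothioneins and antioxidant genes 0.25, microglia −0.66 and neutrophil markers −1.63. The offset removes length-related differences by construction, and whether those are technical was not tested. With at least 10 counts in every library of P7 or P14, medians were 0.21 for astrocyte transcription factors and 0.35 for the thyroid hormone pathway, which was also 0.35 with only the groups of the contrast. Without 1 library, medians ran from 0.09 to 0.29 for astrocyte transcription factors, 0.02 to 0.14 for receptors, −0.62 to −0.43 for synapse-organizing genes, 0.11 to 0.35 for cell cycle inhibitors, −0.63 to −0.47 for progenitor genes, −0.10 to 0.02 for chondroitin sulfate proteoglycans and 0.87 to 1.02 for the respiratory chain. The causes were not tested.

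Replicate numbers did not pair the samples (correlations of deviations 0.14, 0.20 and −0.30). With a replicate block 3269 genes were called, 1113 of them by at least 2-fold, 264 differed from the first week and 3772 from the third, and medians were 0.21 for astrocyte transcription factors, −0.73 for cell cycle, −0.63 for progenitor genes, 0.03 for clock genes and −1.39 for neutrophil markers.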
